A study of Mus musculus with 48 samples.

Results

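The 42 genes described here encode proteins of the lysosome: soluble hydrolases, integral membrane proteins, the TRPML cation channels, subunits of the vacuolar ATPase (V-ATPase) that acidifies the organelle, and 2 genes that act on lysosomes as a whole, Grn and Tfeb. They were taken as a fixed list of symbols, and all 42 were found once among the 49315 genes of the deposited count table. RNA was measured by polyA sequencing in macrophages grown from mouse bone marrow with M-CSF, rested overnight in medium without M-CSF and then kept for 2 h in such medium alone (NT), with 2 ng/mL lipopolysaccharide of S. Minnesota R595 (LPS, which the Toll-like receptor TLR4 senses) or with R848 (resiquimod, which TLR7 senses in the mouse) at 20 ng/mL. The mice were wild type (WT), lacked the LynA isoform (LynAKO), lacked the LynB isoform (LynBKO) or lacked Lyn as a whole (LynKO). Lyn is a tyrosine kinase of the Src family. Each genotype had 4 mice, 2 male and 2 female, and cells of each mouse were differentiated and treated separately, which gave 12 groups of 4 libraries. The sources used here give neither the ages of the mice nor how each allele was made. The series title concerns Lyn in Toll-like receptor activation and in proliferation, and the part of its isoforms.

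Lysosomes are acidic compartments that break down material taken up by phagocytosis and endocytosis, and macrophages are among the cells richest in them. Cathepsins cut proteins, glycosidases trim sugars from glycoproteins and glycolipids, and lipases, ceramidase and sphingomyelinase, helped by saposins, take lipids apart, after which Npc2 and Npc1 pass cholesterol out of the lumen. The V-ATPase pumps protons in, Lamp1 and Lamp2 line the membrane, and TRPML channels let calcium and other cations out. Many of these genes are known targets of TFEB and its relatives of the MiT-TFE family, transcription factors that bind a short palindrome, CACGTG, in promoters and that are held in the cytoplasm by mTORC1 when nutrients are plentiful.

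The hexamer CACGTG reads the same on both strands and was searched in the RefSeq promoter windows of build GRCm38.p6, which run from 250 bases before to 50 after a gene's start. Of the 42 members 35 had at least 1 window. Asah1, Atp6v0d2, Atp6v1b2, Atp6v1h, Ctsb, Ctsh and Npc1 had none. The hexamer was in 12 of the 40 windows of members (30.0%), one window for each of 12 genes, beside 1263 of 12755 windows (9.902%) of all genes tested for expression and 2349 of 32851 RefSeq windows (7.15%). Of 78 further lysosome genes, described below, 59 had windows, and 18 of their 72 windows (25.0%) held the hexamer. The 8 bases TCACGTGA, which hold the hexamer, were in 6 of the 40 windows of members. They were in 8 of the 72 of the further lysosome genes and in 1.827% of those of all genes tested. The 12 members with the hexamer were Atp6v0d1, Atp6v1a, Ctsa, Ctsd, Ctsl, Gaa, Gla, Glb1, Lamp1, Lgmn, Mcoln1 and Mcoln2. A match describes the letters and is not a bound site. Stretches of 5 members follow, 5′ to 3′ on the gene's strand, credited to RefSeq, with the hexamers in capitals: Lamp1 because it held 4 of them, Mcoln2 because of its rise with both ligands, and a glucosidase, a galactosidase and a proton pump subunit to show that different roles share the letters. They lie at chr8:13159070-13159160 (plus strand) for Lamp1, chr3:146150072-146150137 (plus strand) for Mcoln2, chr11:119267793-119267858 (plus strand) for Gaa, chr9:114401000-114401065 (plus strand) for Glb1 and chr16:44139355-44139420 (minus strand) for Atp6v1a.
Lamp1: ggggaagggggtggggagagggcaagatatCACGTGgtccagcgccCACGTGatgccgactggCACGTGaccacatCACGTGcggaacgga
Mcoln2: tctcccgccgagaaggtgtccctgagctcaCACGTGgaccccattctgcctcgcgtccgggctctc
Gaa: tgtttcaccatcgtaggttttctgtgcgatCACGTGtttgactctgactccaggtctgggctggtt
Glb1: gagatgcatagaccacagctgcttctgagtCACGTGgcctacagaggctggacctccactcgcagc
Atp6v1a: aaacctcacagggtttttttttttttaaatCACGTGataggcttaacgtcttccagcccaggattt
The hexamers of Lamp1 began 61 to 15 bases before the RefSeq start, that of Mcoln2 72 bases, that of Gaa 140, that of Glb1 48 and that of Atp6v1a 131 bases before it.

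Total counts were 14974764 to 23321447 per library. Lyn, the targeted gene, was read first. Its CPM (counts scaled to a common library size by TMM) in the 4 unstimulated WT libraries were 191, 178, 172 and 167, and in the LynKO libraries 64, 72.8, 69.2 and 64.5, a log2 fold change of -1.38 ± 0.07 (SE). With LPS Lyn was 318 to 358 CPM in WT and 84.5 to 96.9 in LynKO, and with R848 341 to 398 and 96.2 to 119. Without ligand LynAKO and LynBKO held 107 to 131 and 119 to 133 CPM, between the other genotypes, and counts per gene do not separate the isoforms. Summed CPM of 7 macrophage markers (Csf1r, Adgre1, Cd68, Itgam, Mertk, Fcgr1 and Cd14) were 7445 to 13976 over the 48 libraries, while lists of neutrophil, B cell, T cell, dendritic cell, mast cell and stromal markers each summed to at most 23.5 CPM. Osteoclast markers summed to 50.9 to 153 CPM. Among the libraries 2 labelled female stood apart: LynBKO NT 4 and LynKO NT 4 held Y-linked transcripts (133 and 70.8 CPM) together with Xist (121 and 232 CPM). In LynBKO the sex labels, and the RNA with them, were exchanged between NT 2 and NT 3 as against the LPS and R848 libraries of the same numbers. Results that use these libraries are given with and without them where they changed.

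Per kb of exon the most abundant members were lysozyme, the saposin precursor and cathepsins. The length was that of all annotated exons of a gene together, which can exceed that of a transcript. In unstimulated WT cells Lyz2, the lysozyme of macrophages, stood at 23190 ± 2822 CPM per kb of exon (SD, n = 4), and Psap, the precursor of the saposins, at 4504 ± 257. The cathepsins Ctss, Ctsd and Ctsb followed at 3677 ± 465, 2710 ± 185 and 1924 ± 140 CPM per kb, each apart from its neighbour by more than its SD. At the other end were the proton pump subunit Atp6v0d2, at 3.94 ± 0.715, and the channel Mcoln3, at 3.29 ± 0.550 CPM per kb, whose spreads overlapped. Lyz2 shares sequence with its paralog Lyz1, so its level is uncertain. In addition 15 members overlap another gene with counts in GENCODE M21 (such as Ctsb with Fdft1, Ctsa with Pltp, and Lamp1 with Grtp1), and the sources used here do not give the strand setting of the counting.

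The 42 genes took a large part of the RNA and lost share with either ligand. They held 10.2% to 11.6% of all gene counts in the 4 unstimulated WT libraries (mean 10.7% ± 0.623), 6.66% to 7.36% with LPS and 6.83% to 8.05% with R848. In LynKO cells the shares were 8.11% to 8.74% without ligand, 5.54% to 5.99% with LPS and 5.63% to 6.46% with R848. Within every genotype the unstimulated libraries did not overlap with the stimulated ones, and within every treatment LynKO did not overlap with WT. The share weighs members by their counts. Lyz2, Psap and Ctsb held the most, 3019587, 1227918 and 1154371 counts over the 4 unstimulated WT libraries. Of these Lyz2 and Psap were lower in LynKO, as given below. A share depends on all other genes too. TMM, which scales libraries by the bulk of the genes, and total counts therefore give different zero points. With total counts the median log2 fold change of all genes was -0.54 for LPS and -0.39 for R848 in WT, with TMM -0.03 for both. Changes below are on the TMM scale, that is, relative to the bulk of the genes.

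**Figure D1:**
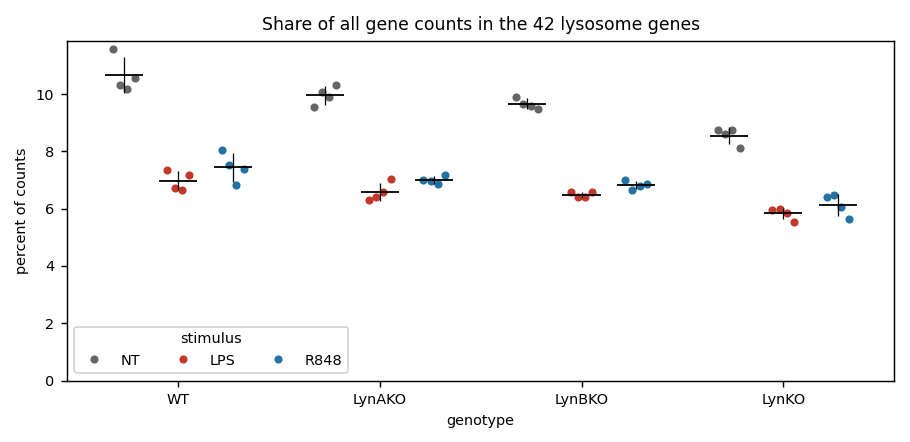
Share of all gene counts that fell in the 42 lysosome genes (y axis, percent, from 0) in each of the 48 libraries (points), by genotype (x axis) and stimulus (colour); lines are the mean and SD of 4 libraries. The WT share went from a mean of 10.7% without ligand to 6.98% with LPS and 7.44% with R848, and LynKO lay below WT under each stimulus.

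LPS for 2 h moved a few lysosome genes strongly and most of them little. In WT cells 18 of 42 members passed the threshold (adjusted p under 0.05, edgeR's quasi-likelihood test, adjusted over all 13986 genes tested): 4 were higher, where 31.5% of all genes were, and 14 lower, where 30.0% of all genes were. R848 moved 22: 5 higher (all genes 30.0%) and 17 lower (all genes 26.7%). Higher calls took a smaller share of the members than of all genes, and the share of lower calls among members was near that of all genes for LPS. The channel gene Mcoln2 and the protease gene Ctsc had the largest rises and Tfeb the largest fall with both ligands. The median over the 42 was -0.10 (log2) with LPS and -0.18 with R848, beside -0.03 for all genes in both. Both comparisons use the same unstimulated libraries. With total counts 40 members passed for each ligand, 2 higher and 38 lower with LPS and 3 higher and 37 lower with R848, beside 10310 and 9277 of all 13986 genes. Without WT mouse 2 the counts were 10 and 12, and R848 gave 13 without mouse 3 and 13 without mouse 4. The LPS calls lost without at least 1 of the 4 mice were those of Atp6v0d2, Ctsk, Gaa, Lipa, Lyz2, Mcoln3, Npc1 and Smpd1. The R848 calls lost in that way were those of Cd63, Ctsa, Ctss, Ctsz, Gaa, Hexa, Lamp2, Laptm5, Mcoln1, Ppt1 and Psap.

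**Figure D2:**
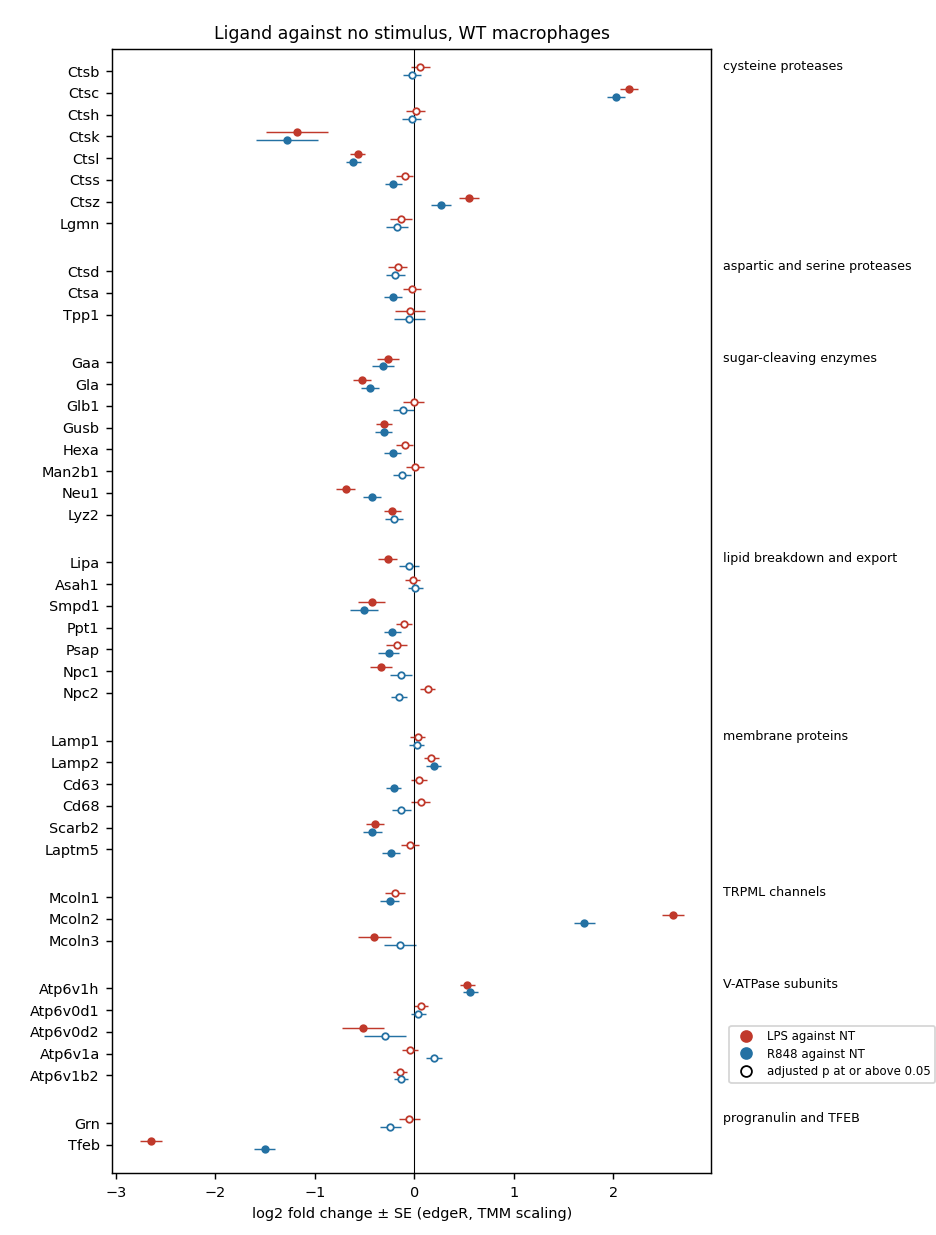
Log2 fold change with its SE (x axis) of each of the 42 members (y axis, by role) for LPS (red) and R848 (blue) against no stimulus in WT cells, 4 libraries a group; filled points passed the threshold. Mcoln2 and Ctsc lie far to the right and Tfeb far to the left, and most others near zero. With total counts in place of TMM the values shift down. The called changes of Ctsz and Lamp2 with R848 change sign, as do some changes without a call, such as that of Lamp1 with LPS.

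The TRPML channels did not move together. Mcoln2 encodes TRPML2, a cation channel of recycling endosomes and lysosomes (ENSMUSG00000011008, chromosome 3, 146149833 to 146195513, plus strand). It read 18.7, 23, 22.9 and 23.9 CPM in the unstimulated WT libraries, 123, 144, 139 and 128 with LPS and 56.3, 76, 76.1 and 76 with R848. The log2 fold changes were 2.60 ± 0.11 (adjusted p = 4.95e-13) and 1.71 ± 0.11 (adjusted p = 2.28e-10), which is 6.08-fold and 3.27-fold. The 3 groups did not overlap, and the LPS range lay above the R848 range. Mcoln1, the widely expressed TRPML1 of late endosomes and lysosomes, was 64 to 81.6 CPM without ligand and 56.7 to 73.2 and 53.9 to 64.5 with LPS and R848. Its change passed for R848 (-0.25 ± 0.10, adjusted p = 0.0395) and read -0.19 for LPS (adjusted p = 0.1). Mcoln3, the third channel, fell with LPS by 0.40 on the log2 scale (adjusted p = 0.0416) from a low level of 9.32 to 13.1 CPM to 7.51 to 11, groups that overlapped. Without mouse 1 its adjusted p was 0.179, and in all 48 libraries as 1 model 0.079.

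Tfeb, the gene of the transcription factor (ENSMUSG00000023990, chromosome 17, 47737030 to 47792419, plus strand), went the other way from Mcoln2. It was 63.2, 57.3, 59.6 and 63 CPM in unstimulated WT libraries, 9.77, 11.1, 9.23 and 8.2 with LPS and 17.6, 20.3, 22.5 and 23.9 with R848. Its log2 fold changes were -2.65 ± 0.11 (adjusted p = 6.82e-13) with LPS and -1.50 ± 0.11 (adjusted p = 1.25e-09) with R848, that is 6.27-fold and 2.84-fold lower. The 3 groups of 4 did not overlap. Grn encodes progranulin, a secreted and lysosomal glycoprotein needed for normal hydrolase activity, and read -0.05 (adjusted p = 0.71) and -0.24 (adjusted p = 0.0589). For R848 Grn passed with the mouse as a block (adjusted p = 0.00334), by DESeq2 (0.0366) and under RLE size factors (0.0473). It also passed without the filter on low counts (0.00737) and with all 48 libraries in 1 model (0.00286).

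**Figure D3:**
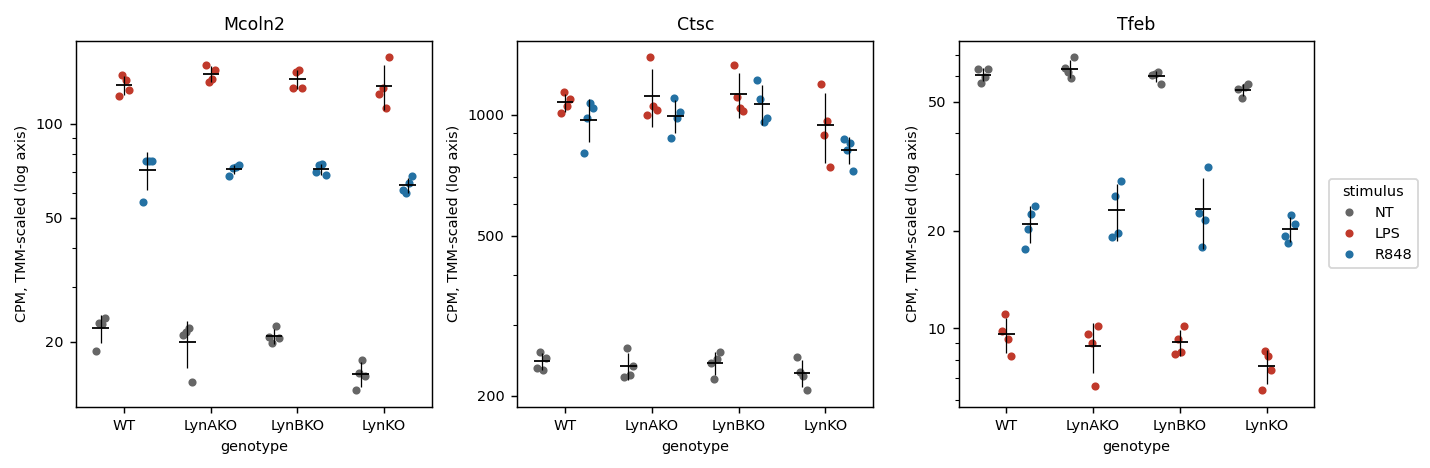
CPM after TMM scaling (y axes, logarithmic) of Mcoln2, Ctsc and Tfeb in each of the 48 libraries (points), by genotype (x axes) and stimulus (colour); lines are the mean and SD of 4 libraries. In each genotype the LPS and R848 points of Mcoln2 and Ctsc lie above, and those of Tfeb below, all unstimulated points; the directions were the same with total counts.

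Among the 8 cysteine proteases Ctsc moved most. Ctsc encodes cathepsin C, the dipeptidyl peptidase that activates granule serine proteases (ENSMUSG00000030560, chromosome 7, 88278085 to 88310888, plus strand). Its CPM in WT were 235, 258, 232 and 249 without ligand, 1013, 1142, 1050.4 and 1093 with LPS and 802, 984, 1069 and 1038 with R848, log2 fold changes of 2.16 ± 0.09 (adjusted p = 5.66e-13) and 2.03 ± 0.09 (adjusted p = 2.1e-12). Stimulated libraries lay about as far above the unstimulated ones for either ligand, and the LPS and R848 ranges overlapped. Ctsz, cathepsin X, a carboxypeptidase, was 1282, 1126, 1141 and 1237 CPM and became 2103, 1559, 1588 and 1698 with LPS and 1425, 1317, 1309.7 and 1609 with R848. It rose by 0.55 ± 0.10 (adjusted p = 0.000102) and 0.27 ± 0.10 (adjusted p = 0.0265) on the TMM scale, with no overlap with the unstimulated group. With total counts the values were 0.03 and -0.10, so the R848 direction was reversed.

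Ctsl and Ctsk fell. Ctsl, cathepsin L, a broad endopeptidase, was 1655, 1786, 1648 and 1549 CPM without ligand, 1074, 1185, 1078 and 1092 with LPS and 1045, 1129, 1005 and 1073 with R848. The changes were -0.57 ± 0.07 (adjusted p = 2.53e-06) and -0.61 ± 0.07 (adjusted p = 1.35e-06), and the unstimulated libraries stood clear above both treated groups. Ctsk encodes cathepsin K, the collagenase of osteoclasts. It read 26.4, 41.5, 11.1 and 11.6 CPM without ligand, 12.4, 8.48, 9.66 and 9.2 with LPS and 9.61, 9.21, 8.65 and 8.97 with R848, with changes of -1.18 ± 0.31 (adjusted p = 0.00317) and -1.28 ± 0.31 (adjusted p = 0.00199). Mice 1 and 2 held the high unstimulated values, and without mouse 2 the adjusted p for LPS was 0.0604. In the same 4 libraries stromal markers summed to 0.93, 4.18, 0.229 and 0.11 CPM (Col1a1 itself was 0 in mice 1, 3 and 4) and osteoclast markers other than Ctsk to 85.5, 61.9, 72.8 and 69.5 CPM, and the part of either in Ctsk was not tested. The osteoclast sum was 112 to 146 CPM with LPS and 66.1 to 76.3 CPM with R848. That list holds Acp5, which itself rose with LPS, so the sum need not follow the number of osteoclasts. Ctss, the cathepsin of the MHC class II pathway, fell slightly with R848 (-0.21 ± 0.09, adjusted p = 0.0442). For Ctsb, Ctsh and Lgmn, an endopeptidase, an aminopeptidase and an asparaginyl endopeptidase, values ran from -0.17 to 0.06 and none passed. Lgmn passed for R848 with the mouse as a block (adjusted p = 0.0321) and with all 48 libraries in 1 model (0.047).

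The proteases of the other classes moved little. Ctsa, the protective protein that holds galactosidase and Neu1 together, read -0.21 with R848 (adjusted p = 0.047) and -0.02 with LPS. Ctsd, the main aspartic protease, read -0.17 and -0.19 without a call and passed with the mouse as a block (adjusted p = 0.0238 and 0.00894). For R848 it also passed without the filter on low counts (0.0271) and with all 48 libraries in 1 model (0.0192). Tpp1, a tripeptidyl peptidase, read -0.05 for both.

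Of the 8 sugar-cleaving enzymes 5 fell with LPS and 5 with R848, and none rose. Neu1, the lysosomal sialidase, was 142, 138, 128 and 143 CPM in unstimulated WT cells, 96.1, 79.7, 74.6 and 88 with LPS and 112, 104, 84.5 and 102 with R848. Its changes were -0.69 ± 0.09 (adjusted p = 4.56e-06) and -0.42 ± 0.09 (adjusted p = 0.000816), with the unstimulated libraries above all others. Gla, the alpha-galactosidase that is deficient in Fabry disease, went from 218, 205, 198 and 198 CPM to 133, 141, 139 and 149.7 with LPS and 167, 162, 127 and 135 with R848. It fell by 0.53 and 0.45 on the log2 scale (adjusted p = 6.01e-05 and 0.000392), again without overlap. Gusb, the glucuronidase, fell by 0.30 and 0.31 (adjusted p = 0.0038 and 0.00398), and Gaa, the acid glucosidase of glycogen, by 0.26 and 0.31 (adjusted p = 0.0443 and 0.0215). The LPS calls of Gaa and Lyz2 (-0.22, adjusted p = 0.0403) were lost under RLE size factors (adjusted p = 0.0504 and 0.055). Hexa, the hexosaminidase subunit, passed for R848 (-0.22, adjusted p = 0.0362) and read -0.10 for LPS. Lyz2 read -0.20 for R848 (adjusted p = 0.0587) and passed there with the mouse as a block (0.0128), by DESeq2 (0.044), without the filter on low counts (0.0155) and with all 48 libraries in 1 model (0.022). Glb1 and Man2b1, a galactosidase and a mannosidase, lay between -0.12 and 0.01 and did not pass.

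Of the 7 genes of lipid breakdown and export 3 fell with each ligand. Smpd1, the acid sphingomyelinase, was 28.6, 29.4, 29.2 and 28.1 CPM without ligand, 22, 19.8, 15.9 and 27.2 with LPS and 22.7, 20.5, 15.4 and 21 with R848, and fell with both (-0.43 ± 0.14, adjusted p = 0.0121 and -0.50 ± 0.14, adjusted p = 0.00474). Lipa, the acid lipase that frees cholesterol and fatty acids, and Npc1, the cholesterol exporter, fell with LPS (-0.27 ± 0.10, adjusted p = 0.0258 and -0.34 ± 0.11, adjusted p = 0.0163), and read -0.05 and -0.13 with R848. The difference between ligands was not past the threshold for either (adjusted p = 0.138 and 0.241). Ppt1, a thioesterase, and Psap passed for R848 (-0.22 ± 0.08, adjusted p = 0.0291 and -0.26 ± 0.11, adjusted p = 0.0463). With the mouse as a block Psap passed for LPS too (adjusted p = 0.0214, -0.18), and Npc2, the lumenal cholesterol carrier, for R848 (adjusted p = 0.0257, -0.16). Asah1, the acid ceramidase, read -0.01 and 0.01.

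Of the 6 membrane proteins Scarb2 fell most. Scarb2, LIMP-2, the receptor that carries glucocerebrosidase to lysosomes, went from 281, 247, 228 and 259 CPM to 199, 179, 180.4 and 205 with LPS and 204, 193, 158 and 189 with R848 (-0.40 ± 0.09, adjusted p = 0.001 and -0.42 ± 0.09, adjusted p = 0.000741), without overlap. Cd63, a tetraspanin of late endosomes, and Laptm5, a transporter-like protein of blood cells, fell with R848 (-0.21 ± 0.08, adjusted p = 0.031 and -0.23 ± 0.09, adjusted p = 0.0412). Lamp2 was 787, 705, 690.1 and 683 CPM without ligand and 807, 797, 839 and 769.9 with R848, an overlapping 0.19 ± 0.07 (adjusted p = 0.0351) that turned to -0.17 with total counts and missed the threshold with no filter on low counts (adjusted p = 0.236). For LPS it read 0.17 (adjusted p = 0.056). It passed with the mouse as a block (0.0358), by DESeq2 (0.0188) and under RLE size factors (0.048). Lamp1 and Cd68, the abundant heavily glycosylated proteins of the lysosomal membrane, lay between -0.13 and 0.07 with no call.

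Among 5 V-ATPase subunits 1 rose with both ligands. Atp6v1h, a regulatory subunit of the cytosolic V1 sector, was 88, 80, 81.7 and 82 CPM without ligand, 112, 122, 120.3 and 122 with LPS and 106, 117, 124 and 134 with R848. It rose by 0.54 ± 0.08 (adjusted p = 1.07e-05) and 0.56 ± 0.08 (adjusted p = 7.52e-06), and all 8 stimulated libraries lay above the unstimulated ones. With total counts the same changes were 0.02 and 0.20. Atp6v0d2, the form of the membrane sector's d subunit found in osteoclasts, was 12, 12.7, 8.82 and 9.29 CPM without ligand and 4.92, 8.73, 6.08 and 9.7 with LPS, a change of -0.52 ± 0.21 (adjusted p = 0.0435) between overlapping groups. The osteoclast sum given above was higher with LPS, and any part of osteoclasts in Atp6v0d2 was not tested. Atp6v0d1, the common counterpart of Atp6v0d2, and the V1 subunits Atp6v1a and Atp6v1b2 read -0.14 to 0.20 without a call. Atp6v1a with R848 (adjusted p = 0.0519) passed with the mouse as a block (0.0259) and by DESeq2 (0.0384). Atp6v1b2 passed with all 48 libraries in 1 model for LPS (0.00848) and R848 (0.00892), and by DESeq2 for R848 (0.0497).

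LPS and R848 were also compared with each other in WT. Of 42 members 5 passed: 3 higher with LPS (all genes 10.9%) and 2 lower (all genes 10.0%). Mcoln2 was higher by 0.89 ± 0.10 (adjusted p = 4.38e-06), Npc2 by 0.29 ± 0.08 (adjusted p = 0.0144) and Cd63 by 0.25 ± 0.08 (adjusted p = 0.0264), while Tfeb was lower by 1.14 ± 0.12 (adjusted p = 7.7e-07) and Atp6v1a read -0.24 ± 0.08 (adjusted p = 0.0485). Tfeb and Mcoln2 groups did not overlap. Npc2 was 2408, 2062, 2135 and 2309.8 CPM with LPS and 1898, 1741, 1649 and 1918 with R848. Cd63 was 1438, 1277, 1369 and 1396 and 1267, 1083, 1042 and 1152 CPM, both pairs of ranges apart, while those of Atp6v1a, 474, 542, 533 and 494 and 656, 619, 594 and 518, overlapped. With the mouse as a block 10 members passed, 7 higher and 3 lower, and the added ones were Ctsz (adjusted p = 0.00752), Neu1 (0.00951), Cd68 (0.0337), Ctsa (0.0374) and Grn (0.0375). With total counts 6 passed, 1 higher and 5 lower, and Npc2 and Cd63 read 0.14 and 0.11 without a call. Without WT mouse 2 the count was 2, and without mouse 3 it was 3. The calls of Cd63, Npc2 and Atp6v1a were lost without at least 1 mouse.

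Mcoln2 and Ctsc rose and Tfeb fell in each of the 3 knockouts too. With LPS 18 passed in LynAKO, 5 higher (all genes 30.4%) and 13 lower (all genes 30.3%). In LynBKO 23 passed, 7 higher (all genes 33.9%) and 16 lower (all genes 33.4%), and in LynKO 21, 4 higher (all genes 31.0%) and 17 lower (all genes 30.7%). With R848 the counts were 21 in LynAKO, 4 higher (all genes 29.0%) and 17 lower (all genes 26.9%). They were 31 in LynBKO, 4 higher (all genes 31.3%) and 27 lower (all genes 32.2%), and 27 in LynKO, 4 higher (all genes 28.4%) and 23 lower (all genes 27.0%). Without the 2 libraries that held male and female transcripts LynBKO gave 21 and 27 and LynKO 22 and 28, and without LynAKO mouse 3 the R848 count there was 13. With total counts 40 to 41 members passed in each of the 6, of which 37 or 38 were lower, while LPS called 10262 to 10897 and R848 8877 to 10097 of all genes. With the mouse as a block LPS called 25 members in LynAKO, 24 in LynBKO and 28 in LynKO, and R848 called 29, 31 and 32. With LynBKO NT 2 and NT 3 exchanged in the block, LPS called 28 members there, 8 higher and 20 lower.

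Over the 4 genotypes Mcoln2 rose by 2.60 to 3.06 (log2) with LPS and 1.71 to 2.00 with R848. In LynKO it went from 14, 15.9, 17.6 and 15.6 CPM to 125, 129.9, 113 and 163 and to 61.6, 60.1, 64.5 and 68.1 with LPS and R848. Ctsc rose by 2.05 to 2.24 and 1.83 to 2.14, and Tfeb changed by -2.85 to -2.65 and -1.50 to -1.37. In LynKO Tfeb was 54.9, 51.4, 55.4 and 56.8 CPM without ligand, 6.44, 8.51, 8.21 and 7.42 with LPS and 19.2, 18.3, 22.3 and 21 with R848, so that no treated library reached an untreated one. Atp6v1h, Neu1, Gla, Smpd1, Scarb2, Gusb, Gaa, Ctsl and Ctsz kept their WT direction and their call in all 3 knockouts with both ligands on the TMM scale. With LPS, small rises of Lamp2 in LynAKO and LynBKO and of Npc2 and Atp6v0d1 in LynBKO (0.15 to 0.20) were reversed with total counts (-0.29, -0.29, -0.35 and -0.33). Ctsk fell by 0.94 in LynBKO and 1.24 in LynKO with LPS. Unstimulated values were 9.79, 8.7, 23.3 and 9.54 CPM in LynBKO and 8.27, 6.99, 10.9 and 29.5 CPM in LynKO. In each, 1 library was high. The high LynKO library was NT 4, which held male and female transcripts, and the LynKO libraries with LPS held 4.49 to 9.18 CPM. Atp6v0d2 fell in LynKO from 11.3, 10.8, 11 and 10.8 CPM to 5.61, 8.14, 6.83 and 7.03 with LPS (-0.67 ± 0.12, adjusted p = 0.000173) and to 8.11, 7.94, 7.06 and 7.51 with R848 (-0.53 ± 0.12, adjusted p = 0.00149), with the unstimulated libraries on top. Npc1 in LynBKO was 369, 318, 289 and 322 CPM without ligand and 200.2, 221, 257 and 223 with LPS (-0.52 ± 0.09, adjusted p = 6.77e-05).

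Whether loss of Lyn changed the effect of a ligand was tested as the difference between LynKO and WT in all 48 libraries. No member passed for LPS (all genes 0.100%) or R848 (all genes 0.193%) by edgeR, with 1 and 2 members at an unadjusted p under 0.05 and 0 and 0 by DESeq2. Of all genes 7.6% and 9.02% were at an unadjusted p under 0.05 by edgeR, a larger share than of the members. Mcoln2 had the smallest p for LPS, a difference of 0.48 ± 0.14 (log2, adjusted p = 0.186), and read 0.33 ± 0.14 for R848 (adjusted p = 0.479). The other member under 0.05 for R848 was Ctsz, at 0.26 ± 0.12 (adjusted p = 0.521).

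Between genotypes most lysosome genes that passed were lower in LynKO. Without ligand 16 members passed against WT, 2 higher (all genes 5.43%) and 14 lower (all genes 4.47%). With LPS 18 passed, 2 higher (all genes 4.43%) and 16 lower (all genes 4.06%), and with R848 10, 1 higher (all genes 3.19%) and 9 lower (all genes 2.74%). Medians over the 42 were -0.14, -0.19 and -0.18 (log2), beside 0.01, 0.02 and 0.01 for all genes. Lower calls took a larger share of the members than of all genes under each treatment. Lyz2, Psap and Mcoln3 fell under all 3 treatments and Ctsl rose. The 3 comparisons use different libraries of the same mice. With total counts 14, 8 and 7 members passed, 2, 2 and 1 of them higher, beside 1481, 1428 and 1051 of all 13986 genes, and the median of all genes was 0.07, 0.12 and 0.11. With R848 DESeq2 called 15 members, as did all 48 libraries in 1 model. The counts under the 3 treatments were not compared by a test. Without the 2 libraries that held male and female transcripts the unstimulated comparison called 13, 1 higher and 12 lower. Calls lost without at least 1 LynKO or WT mouse were those of Ctsd, Ctsh, Gaa and Lipa without ligand, of Ctsk, Ctss, Gaa, Hexa, Man2b1, Mcoln3, Scarb2 and Tpp1 with LPS, and of Atp6v0d1, Ctsa and Scarb2 with R848.

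Other measures moved with this comparison. Markers of dividing cells (Mki67, Top2a, Ccnb1, Cdk1 and Mcm5) summed to 52.1 to 85.6 CPM in unstimulated WT and 149 to 173 CPM in LynKO libraries, and 5 of 5 were higher. With LPS 3 of 5 and with R848 4 of 5 were higher in LynKO, and summed levels overlapped (331 to 414 and 345 to 433 CPM with LPS, 236 to 367 and 214 to 389 CPM with R848). Macrophage markers summed to 7998 to 8786 CPM in WT and 7445 to 8196 CPM in LynKO without ligand, and neutrophil markers to 2.72 to 6.03 and 2.97 to 4.97 CPM. The part of these in the lower lysosome genes was not tested, and in bulk RNA fewer cells of a type and less RNA per cell cannot be told apart.

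**Figure D4:**
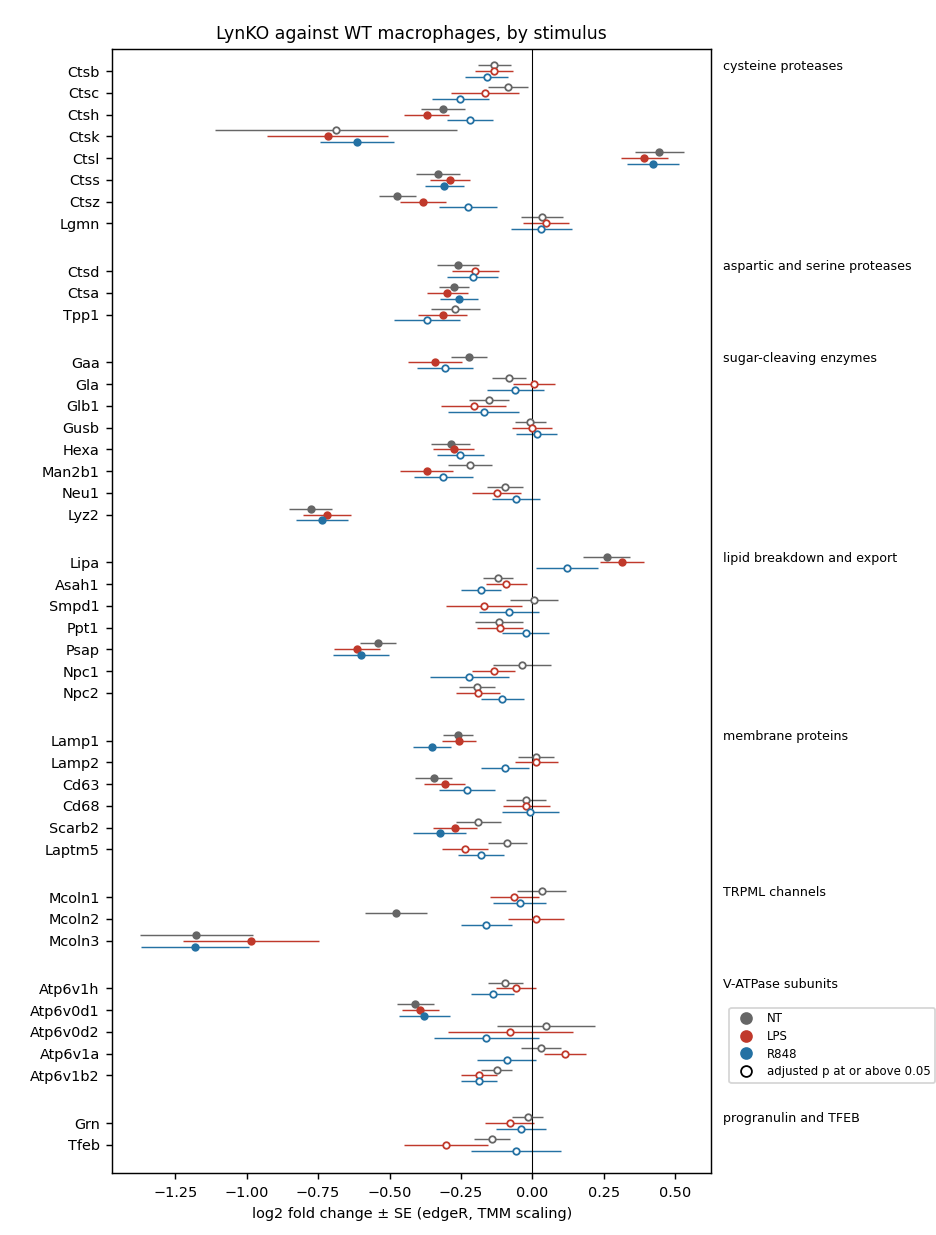
Log2 fold change with its SE (x axis) of LynKO against WT for each of the 42 members (y axis, by role) without ligand (grey), with LPS (red) and with R848 (blue), 4 libraries a group; filled points passed the threshold. Mcoln3 lies farthest left and Ctsl farthest right under all 3 treatments.

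Lyz2, Psap and Mcoln3 stood apart from WT in every treatment. Lyz2 (ENSMUSG00000069516, chromosome 10, 117277331 to 117282321, minus strand) read 35975, 28038, 28311 and 29749 CPM in WT and 18554, 18001, 17877 and 16217 in LynKO without ligand. With LPS it read 29160, 23819, 25361 and 25578 CPM in WT and 17197, 15791, 15209 and 14050 in LynKO, and with R848 25908, 24309, 25607 and 28087 CPM in WT and 16356, 17609, 15322 and 13050 in LynKO. The log2 differences were -0.78 ± 0.08 (adjusted p = 3.46e-06), -0.72 ± 0.08 (adjusted p = 2.94e-05) and -0.74 ± 0.09 (adjusted p = 0.000139). Every LynKO library lay below every WT library of its treatment.

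Psap, whose saposins present lipids to hydrolases (ENSMUSG00000004207, chromosome 10, 60277627 to 60302597, plus strand), read 13388, 11833, 11974 and 12244 CPM in WT and 8533, 8462, 9093 and 7613 in LynKO without ligand. With LPS it read 12809, 9767, 10021 and 10787 CPM in WT and 6973, 7089.5, 7497 and 6392 in LynKO, and with R848 12389, 10151, 8820.5 and 9183 CPM in WT and 7075, 6667, 7206 and 5827 in LynKO. It was lower by 0.54, 0.61 and 0.60 on the log2 scale (adjusted p = 1.48e-05, 0.000108 and 0.00163), also without overlap. Mcoln3 (ENSMUSG00000036853, chromosome 3, 146117450 to 146141806, plus strand) was scarce and read 13.1, 10.3, 9.32 and 13 CPM in WT and 4.47, 3.49, 6.29 and 5.75 in LynKO without ligand. With LPS it read 8.05, 7.7, 7.51 and 11 CPM in WT and 3.64, 2.53, 5.38 and 5.68 in LynKO, and with R848 10.9, 11.4, 10.3 and 7.88 CPM in WT and 3.36, 5.21, 3.96 and 5.38 in LynKO. Its differences of -1.18 ± 0.20 (adjusted p = 0.000491), -0.99 ± 0.24 (adjusted p = 0.0136) and -1.18 ± 0.19 (adjusted p = 0.00144) were the widest of the 42, with LynKO below WT throughout. Without LynKO mouse 2 the adjusted p for LPS was 0.0503.

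Ctsl and Lipa were the members higher in LynKO. Ctsl (ENSMUSG00000021477, chromosome 13, 64359337 to 64370890, minus strand) read 1655, 1786, 1648 and 1549 CPM in WT and 2280.1, 2384, 1922 and 2372 in LynKO without ligand. With LPS it read 1074, 1185, 1078 and 1092 CPM in WT and 1469, 1569, 1234 and 1459 in LynKO, and with R848 1045, 1129, 1005 and 1073 CPM in WT and 1395, 1561, 1250.3 and 1499.5 in LynKO. It was higher by 0.45 ± 0.09 (adjusted p = 0.00183), 0.39 ± 0.08 (adjusted p = 0.00578) and 0.42 ± 0.09 (adjusted p = 0.0096), with all LynKO libraries on top in each treatment and with the same direction and calls under total counts. Lipa read 1281, 1445, 1556 and 1305 CPM in WT and 1696, 1609, 1767 and 1559.5 in LynKO without ligand, a difference of 0.26 ± 0.08 (adjusted p = 0.0497) at the edge of the threshold. With LPS it read 989, 1230.4, 1192 and 1183 CPM in WT and 1381, 1421, 1406 and 1428 in LynKO, a difference of 0.32 ± 0.08 (adjusted p = 0.0144). The unstimulated call was lost when any LynKO mouse was left out, and without LynKO NT 4 and LynBKO NT 4 the adjusted p was 0.0688. With R848 it read 0.12 (adjusted p = 0.578).

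**Figure D5:**
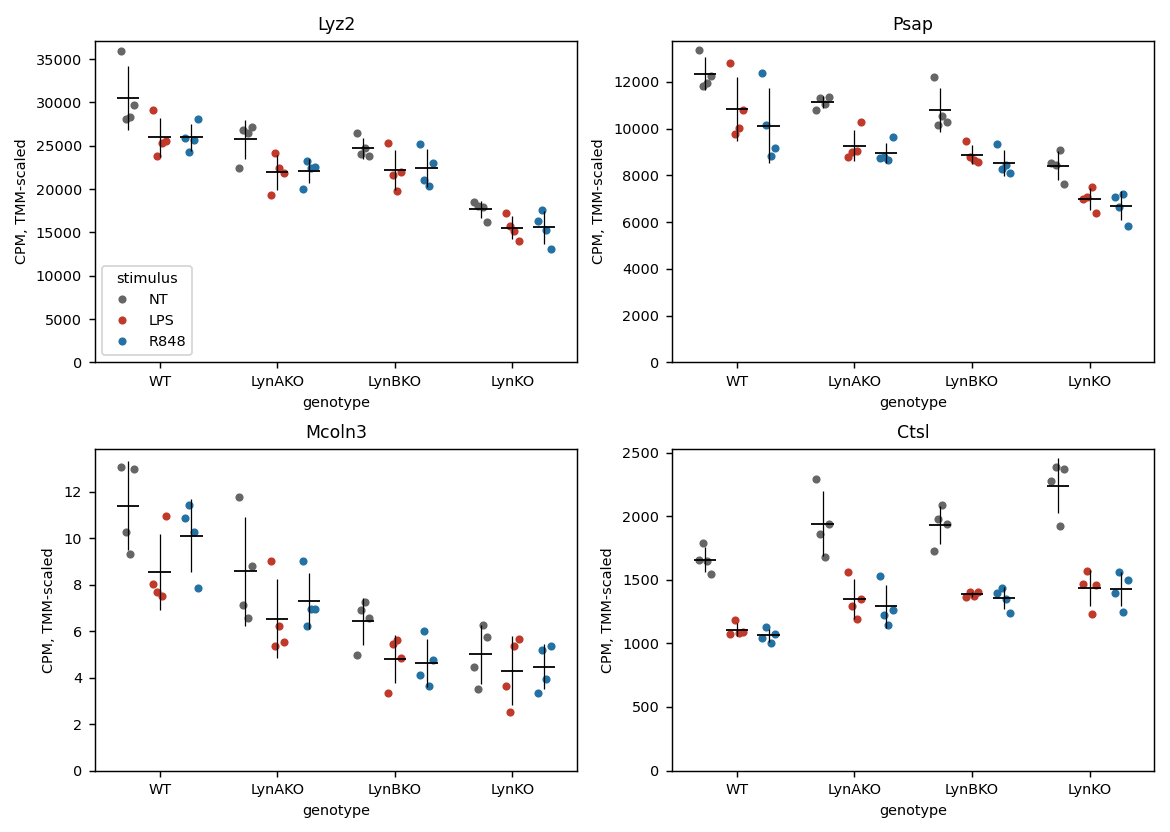
CPM after TMM scaling (y axes, from 0) of Lyz2, Psap, Mcoln3 and Ctsl in each of the 48 libraries (points), by genotype (x axes) and stimulus (colour); lines are the mean and SD of 4 libraries. LynKO points lie below WT points of the same stimulus for Lyz2, Psap and Mcoln3 and above them for Ctsl, and LynAKO and LynBKO lie between or overlap them.

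Of the other proteases, several were lower. Ctsz was 887, 811, 873 and 849 CPM in LynKO against 1282, 1126, 1141 and 1237 in WT without ligand (-0.47 ± 0.07, adjusted p = 7.98e-05), and lower with LPS (-0.38 ± 0.08, adjusted p = 0.0059), while R848 gave -0.23 (adjusted p = 0.207). Ctss passed under all 3 treatments (-0.33, -0.29 and -0.31, adjusted p = 0.0085, 0.014 and 0.0108), as did Ctsa (-0.28, -0.30 and -0.26, adjusted p = 0.00134, 0.013 and 0.0274). Ctsh fell without ligand and with LPS (-0.31 and -0.37, adjusted p = 0.0117 and 0.00633), Ctsd without ligand (-0.26, adjusted p = 0.0256) and Tpp1 with LPS (-0.31, adjusted p = 0.027). Tpp1 read -0.27 without ligand and -0.37 with R848 (adjusted p = 0.0512 and 0.0663), and passed in both by DESeq2 (0.0242 and 0.0251). The unstimulated calls of Ctsh and Ctsd were lost without LynKO NT 4 and LynBKO NT 4 (adjusted p = 0.0576 and 0.0959). Ctsk was lower with LPS, 5.19, 4.49, 9.18 and 5.1 CPM against 12.4, 8.48, 9.66 and 9.2 (-0.72 ± 0.21, adjusted p = 0.0401, overlapping), and with R848, 4.87, 5.53, 6.75 and 6.69 against 9.61, 9.21, 8.65 and 8.97 (-0.61 ± 0.13, adjusted p = 0.00902, apart). Without ligand Ctsk read -0.69 (adjusted p = 0.36). Without the 2 libraries that held male and female transcripts it read -1.36 (adjusted p = 0.0496). In all 48 libraries as 1 model Ctsk passed with neither ligand (adjusted p = 0.176 and 0.29). Ctsb, Ctsc and Lgmn, between -0.25 and 0.05, did not pass.

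Atp6v0d1, the d1 subunit of the V-ATPase membrane sector, was lower in LynKO under all 3 treatments. It read 150.2, 134, 135 and 144 CPM in WT and 99.7, 112, 104 and 105 in LynKO without ligand. With LPS it read 155, 135, 147 and 148 CPM in WT and 109, 110.0, 107 and 113 in LynKO, and with R848 142, 134, 139 and 152 CPM in WT and 101, 116, 108 and 112 in LynKO. Differences were -0.41 ± 0.06 (adjusted p = 0.000252), -0.39 ± 0.06 (adjusted p = 0.000664) and -0.38 ± 0.09 (adjusted p = 0.0163), and no LynKO library reached a WT library. The R848 call was lost without LynKO mouse 1 or WT mouse 4 and with total counts (adjusted p = 0.0544, 0.0553 and 0.0538). The other 4 subunits on the list lay between -0.19 and 0.11 with no call. Of these Atp6v1b2, at -0.19 with LPS and -0.19 with R848, passed by DESeq2 (adjusted p = 0.0135 and 0.00651) and with all 48 libraries in 1 model (0.00735 and 0.0175). Among membrane proteins Lamp1 passed in all 3 treatments (-0.26, -0.26 and -0.35, adjusted p = 0.00269, 0.0118 and 0.00433), Cd63 without ligand and with LPS (-0.35 and -0.31, adjusted p = 0.00135 and 0.0117) and Scarb2 with either ligand (-0.27 and -0.32, adjusted p = 0.0325 and 0.0454). Lamp2, Cd68 and Laptm5, -0.23 to 0.01, did not pass.

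Mcoln2 was lower in LynKO without ligand, 14, 15.9, 17.6 and 15.6 CPM against 18.7, 23, 22.9 and 23.9 (-0.48 ± 0.11, adjusted p = 0.00707), with values of 0.01 and -0.16 under LPS and R848. The difference between these is that given above for the ligand effect, which did not pass. Mcoln1 read -0.06 to 0.03, Tfeb -0.14, -0.30 and -0.06, and Grn -0.08 to -0.02, none past the threshold. Of the sugar-cleaving enzymes Hexa fell without ligand and with LPS (-0.29 and -0.28, adjusted p = 0.0085 and 0.0211), as did Gaa (-0.22 and -0.34, adjusted p = 0.0311 and 0.0302), and Man2b1 with LPS (-0.37, adjusted p = 0.0176). With R848 Hexa, Gaa and Man2b1 read -0.25, -0.31 and -0.31 (adjusted p = 0.078, 0.0716 and 0.0807). All 3 passed there by DESeq2 (adjusted p = 0.0274, 0.0275 and 0.036) and with all 48 libraries in 1 model. The unstimulated call of Gaa was lost without the 2 libraries that held male and female transcripts (adjusted p = 0.0707). With total counts the LPS calls of Hexa, Gaa, Man2b1, Ctsa, Ctss, Ctsk, Tpp1, Lamp1, Cd63 and Scarb2 were lost, all with their direction unchanged. Gla, Glb1, Gusb and Neu1 lay between -0.21 and 0.02, and Asah1, Smpd1, Ppt1, Npc1 and Npc2 between -0.22 and 0.01, without a call.

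The single-isoform knockouts called no member. For LynAKO against WT edgeR called 0 without ligand (all genes 0.0286%), 0 with LPS (all genes 0.0215%) and 0 with R848 (all genes 0.00715%), with 8, 6 and 4 members at an unadjusted p under 0.05 and 0 by DESeq2 in each. For LynBKO it called 0 without ligand (all genes 0.0644%), 0 with LPS (all genes 0.0358%) and 0 with R848 (all genes 0%), with 16, 11 and 11 members at an unadjusted p under 0.05 and 6, 0 and 1 by DESeq2. LynAKO against LynBKO gave 0 under each treatment (all genes 0%, 0% and 0%), with 8, 2 and 3 at an unadjusted p under 0.05 and 0 by DESeq2. Of all genes 4.8%, 5.34% and 3.2% were at an unadjusted p under 0.05 by edgeR for LynAKO against WT. For LynBKO against WT the shares of all genes were 13.2%, 5.43% and 4.55%, and for LynAKO against LynBKO 8.39%, 2.52% and 3.18%. Medians over the 42 were -0.03, -0.03 and -0.05 (log2) for LynAKO and -0.08, -0.10 and -0.10 for LynBKO.

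Mcoln3 came nearest in LynBKO. It was 4.98, 6.91, 7.27 and 6.58 CPM without ligand and 4.1, 6.03, 3.63 and 4.75 with R848, against the WT values given above. The differences were -0.82 ± 0.19 (adjusted p = 0.116) and -1.13 ± 0.19 (adjusted p = 0.0689), with no overlap and no call. LynAKO libraries held 11.8, 7.12, 6.57 and 8.82 CPM without ligand and overlapped with both WT and LynBKO. Cd63 had the smallest p without ligand in LynBKO, at 1124, 1102, 1063 and 1052 CPM against 1406, 1279.9, 1324 and 1339 in WT (-0.30 ± 0.07, adjusted p = 0.0853). Lyz2 was 22447, 26804, 26473 and 27173 CPM in LynAKO and 26456, 24000, 24704 and 23784 in LynBKO, values of -0.24 and -0.31 against WT (adjusted p = 0.777 and 0.147). Ctsl read 0.29 in LynAKO and 0.33 in LynBKO with LPS (adjusted p = 0.756 and 0.294). The comparisons of the 3 knockouts share their WT libraries.

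Changes were set beside the promoter hexamer. In WT the 12 members with CACGTG had a median change of -0.09 with LPS and -0.18 with R848, and the 23 with a window but no hexamer -0.10 and -0.21. For LynKO against WT without ligand the medians were -0.19 in both. These are descriptions without a test, and absence of the letters covers this window alone.

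A list of 78 further lysosome genes, all tested, sets the members in their pathway. Changes of the 78 are given on the TMM scale alone. Total counts gave lower values for the members with either ligand, and were not read for the 78. Small rises among them may therefore depend on the scaling. In WT 23 rose and 27 fell with LPS, and 17 rose and 27 fell with R848, with medians of -0.12 and -0.08. Over all genes 31.5% rose and 30.0% fell with LPS, and 30.0% and 26.7% with R848. Relatives of Tfeb went up while it went down: Tfec by 4.55 and 3.71, Mitf by 2.80 and 2.33 and Tfe3 by 0.50 and 0.70 (log2, LPS and R848). Flcn and Rragd, partners of mTORC1 control at the lysosome, fell by 1.85 and 0.86 with LPS and 1.41 and 0.91 with R848. Cst7, the cystatin F that inhibits cathepsin C, rose by 3.43 with LPS and 1.44 with R848, the same treatments in which Ctsc rose. Of 13 other V-ATPase subunits 6 rose with LPS, Atp6v1e1 (1.37) and Tcirg1 (1.01) most, and 2 fell, Atp6v1c1 (-0.23) and Atp6v1d (-0.21). With R848 2 rose, Atp6v1e1 (1.04) and Atp6v0c (0.23). Among 28 other enzymes Sgsh, a sulfamidase, and Pla2g15, a phospholipase, fell most (-1.86 and -1.39 with LPS, -1.64 and -1.41 with R848), and Acp5, an acid phosphatase, rose (2.17 and 1.13). Of 20 other membrane proteins 6 rose and 9 fell with each ligand, among them Ctns, the cystine exporter (-1.85 and -1.28).

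In LynKO against WT 6 of the 78 were higher and 17 lower without ligand, 3 and 13 with LPS, and 0 and 7 with R848, with medians of -0.09, -0.07 and -0.06. The shares of all genes are those given above for LynKO against WT, from 2.74% lower with R848 to 5.43% higher without ligand. Tfec was lower in all 3 treatments (-0.63, -0.45 and -0.48), as were Flcn (-0.43, -0.45 and -0.34) and Rragc, a GTPase that recruits mTORC1 (-0.41, -0.23 and -0.33). Hgsnat, an enzyme of heparan sulfate breakdown, also fell in all 3 (-0.42, -0.41 and -0.51). Arsb, a sulfatase, was higher without ligand and with LPS (0.66 and 0.61). Of the V-ATPase subunits Atp6v0c and Atp6v1e1 were lower without ligand (-0.29 and -0.25) and with LPS (-0.34 and -0.32), beside Atp6v0d1 among the members.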

How the data were processed

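Samples were grouped by genotype and treatment as the labels give them. Counts per gene were deposited by the authors as whole numbers and used as deposited; the submitters' processing notes name Trimmomatic 0.36, STAR 2.5.2b, featureCounts of Subread 1.5.2, DESeq2 and build GRCm38, and the sources used here do not give the annotation release or the strand setting. A second deposited table holds the authors' variance-stabilised log2 values for 13617 genes and entered no test. Gene coordinates and names came from GENCODE M21 (GRCm38), which held 49056 of the 49315 identifiers, and promoter windows from RefSeq tables of GRCm38.p6. Total counts of 14974764 to 23321447 per library limit the precision of low genes such as Mcoln3.

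In R 4.3.3, edgeR 4.0.16 (quasi-likelihood test, TMM scaling) was fitted to the 13986 genes that passed its expression filter (minimum count 10, minimum total 15). Fits for ligand comparisons held the 12 libraries of a genotype, those between genotypes the 16 of a treatment, and the difference of ligand effects all 48. P-values were Benjamini-Hochberg adjusted over all genes tested in each comparison, with a threshold of 0.05, and an SE is the log2 fold change divided by the root of F. CPM are counts scaled by TMM library sizes. Scripts were tested on simulated data. The members and lists were chosen with earlier results of these data known. All 42 members are accounted for by role, with values per library for up to 5 called members each way per comparison, and up to 3 genes each way for the other lysosome lists. Some genes of those lists are not reported here.

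Labels give the 3 treatments of a genotype the same mouse numbers, and cells of each mouse were treated separately, so these comparisons are paired by mouse. The fits described above held no term for the mouse, so their p-values, SEs and counts leave the pairing out. A block by mouse was fitted as an alternative. Deviations of libraries with the same number correlated above 0.1 in 12 of 12 pairs in WT, LynAKO and LynKO. In LynBKO 6 of 12 did. There NT 2 and NT 3 correlated at -0.325 to -0.252 with the ligand libraries of their own numbers. With those of each other's numbers they correlated at 0.204 to 0.295. The block was also fitted with NT 2 and NT 3 exchanged. Alternatives were DESeq2 1.42.0, no filter on low counts, RLE size factors, a replicate block, sex as a covariate, all 48 libraries in 1 model, leaving out each mouse and, added after seeing the data, total counts and leaving out the 2 libraries that held male and female transcripts.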

Additional observations from a re-analysis of the deposited data

Results flagged for a closer look

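In 276 sets of 4 libraries, formed by 22 named members and the member share of counts in 12 groups, 16 held a library far from the other 3 on the CPM or percent scale, and chance flags about 1 in 20 groups. In LynAKO, mouse 4 was low without ligand for Lipa (1178 CPM, others 1572 to 1645), Mcoln2 (14.9, others 21.1 to 22.2) and Npc1 (236, others 335 to 349). With R848 it was low for Npc1 (212, others 278 to 288) and high for Atp6v0d1 (157, others 124 to 125) and Psap (9629, others 8679 to 8811). Lyz2 was low in unstimulated LynAKO mouse 1 (22447 CPM, others 26473 to 27173) and Ctsc high in LynAKO mouse 2 with LPS (1390.5 CPM, others 997 to 1051).

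Ctsk was high in unstimulated LynBKO mouse 3 (23.3 CPM, others 8.70 to 9.79) and in LynKO mouse 3 with LPS (9.18 CPM, others 4.49 to 5.19). Gla was low in LynBKO mouse 1 with R848 (115.5 CPM, others 138 to 139) and Atp6v1a low in LynKO mouse 4 with R848 (463 CPM, others 585 to 606). In WT with LPS, Atp6v1h was low in mouse 1 (112 CPM, others 120.3 to 122), Ctsl high in mouse 2 (1185 CPM, others 1074 to 1092) and Mcoln3 high in mouse 4 (10.98 CPM, others 7.51 to 8.05). Mcoln2 was low in WT mouse 1 with R848 (56.3 CPM, others 76.0 to 76.1). Over the 22 members and both ligands, 264 pairs of genotypes were compared, and in 0 of them did every mouse of one genotype move opposite to every mouse of the other.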

How the results depend on the processing

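With total counts in place of TMM, chosen after seeing the data, LPS called 40 members in WT, LynAKO and LynBKO and 41 in LynKO, R848 called 40 in WT and LynAKO and 41 in LynKO, and LynKO against WT with LPS called 8. The same scaling reversed Ctsz (-0.10) and Lamp2 (-0.17) with R848 in WT, Lamp2 with LPS in LynAKO (-0.29) and LynBKO (-0.29), and Npc2 (-0.35) and Atp6v0d1 (-0.33) with LPS in LynBKO. LPS against R848 in WT called 10 members with all 48 libraries in 1 model and 10 with the replicate block by mouse. The same fits called 3529 and 3692 of all genes. Leaving out single mice gave 10 to 19 calls for LPS and 12 to 24 for R848 in WT, 2 to 6 between them, 13 to 26 for R848 in LynAKO, and 0 to 1 for LynBKO against WT without ligand (1 without LynAKO mouse 4) and with R848 (1 without LynKO mouse 4 and without WT mouse 4). The cause was not tested.

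With no filter on low counts the LPS effect in LynKO minus WT called 1 member, LynAKO against WT without ligand 2, and LynBKO against WT 7 without ligand, 3 with LPS and 2 with R848. For LynBKO against WT, DESeq2 called 6 without ligand and 1 with R848, and with R848 all 48 libraries in 1 model called 1, sex as a covariate 1 and the replicate block 1. Genotypes share only replicate numbers: libraries of the same number in different genotypes correlated above 0.1 in 55 of 72 pairs, and the replicate block called 19 members for LynKO against WT with R848. Beside the changes given with the results, the block by mouse changed no call in WT. Over all settings, 2748 values of single members kept direction and side of the threshold. In the same direction 334 gained and 290 lost a call. A further 40 values without a call passed with the opposite sign, and 6 called values changed sign. Low genes limit what the depth can show: Mcoln3, Ctsk and Atp6v0d2 were near 10 CPM.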
